A study of Mus musculus with 8 samples.

Results

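The genes described here are 39 genes of the cell division cycle and its brakes, read as rows of a deposited table of read counts in group 3 innate lymphoid cells (ILC3s) of the mouse large intestine. They were chosen by name: 8 cyclins and cyclin-dependent kinases of the G1 phase, 6 genes for kinase inhibitors, the retinoblastoma protein and E2F factors, 10 genes of S phase, and 15 genes of G2 and mitosis. All 39 were found among the 27179 rows of the table. The cells were CCR6+ ILC3s sorted from C57BL/6 mice at steady state, 1 library per mouse, with 4 mice per group. The Zbtb46-sufficient group (labelled Wild type, replicates 1 to 4) had the genotype Zbtb46f/f, with floxed alleles and no Cre. The Zbtb46-deficient group (labelled Zbtb46 KO, replicates 5 to 8) carried a Cre recombinase with the floxed Zbtb46 alleles, so both groups carried the floxed alleles and differed in the Cre. Age and sex were not given in the sources used here.

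A cell that divides makes D-type cyclins, which with CDK4 and CDK6 phosphorylate the retinoblastoma protein and so release E2F factors. E2F then turns on the genes of DNA replication, and a second wave of genes for mitosis follows, many of them repressed in resting cells by the DREAM complex through E2F and CHR elements in their promoters. A quiescent cell holds this sequence in check through inhibitors such as p27 (Cdkn1b) and p18 (Cdkn2c). Tissue-resident ILC3s are long-lived cells of which few are in cycle at steady state.

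The libraries held 25328231 to 33760743 counts, and 10668 to 14410 rows had at least 1 count. Values are CPM, a gene's counts scaled to a common library total, given as mean ± SD over n = 4 libraries, and a count of 0 allows up to 0.0856 to 0.124 CPM (3 counts in a library on that scale, counting error only, as reads that carry no molecular identifiers are no independent molecules). The targeted gene Zbtb46 lay lower in all 4 libraries labelled deficient (0.125 to 4.82 CPM) than in the 4 sufficient ones (8.02 to 88.9 CPM). All 10 markers of CCR6+ ILC3s were present, with sums of 27733 to 39501 CPM in sufficient libraries and 26384 to 31848 CPM in deficient ones. Epithelial, stromal and macrophage or neutrophil markers stood out in single libraries. Epithelial markers (8 of 10 above 3 counts in any library, Vil1 and Cdh1 in none) reached 1364 CPM in sufficient replicate 2, with 7 of 10 above 3 counts there, and no other library exceeded 28.7 CPM. Stromal and endothelial markers (9 of 10, without Cdh5) were highest in sufficient replicate 1 (1347 CPM) and deficient replicate 7 (1066 CPM), and the other 6 libraries had 200.2 to 558 CPM. Macrophage and neutrophil markers (8 of 9, without Ly6g) were highest in deficient replicate 5 (335 CPM) and deficient replicate 7 (736 CPM), and the other 6 libraries had 1.08 to 43.2 CPM. Other lists lay higher over the deficient group, with ranges that overlapped. NK cell and ILC1 markers (5 of 7, without Prf1 and Eomes, with Ncr1 the largest in 7 of 8 libraries) had 49.2 to 246.5 CPM in sufficient and 177 to 600 CPM in deficient libraries. Klrb1c of that list had 24.45 to 48.2 CPM in sufficient and 13.7 to 46.2 CPM in deficient libraries. Ccl5, Gzma and Tbx21 had their highest values in deficient libraries. ILC2 markers (6 of 6, with Areg the largest in each library) had 64.7 to 287 CPM in sufficient and 286 to 478 CPM in deficient libraries. Areg alone separated the groups, with 45.8 to 211 CPM in sufficient and 272 to 409 CPM in deficient libraries. The other ILC2 markers overlapped between the groups, with Gata3 at 17.6 to 55.96 CPM in sufficient and 7.79 to 67.3 CPM in deficient libraries. The part of these lists in the values that follow was not tested.

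Between genotypes, no cell cycle or quiescence gene passed the test against the spread between libraries. With edgeR's quasi-likelihood test, 0 of 39 members passed an adjusted p of 0.05, as did 0% of the 8878 genes tested, and 1 member, Cdkn1b, had an unadjusted p under 0.05, against 4.1% of all tested genes (2.1% higher and 2% lower in deficient ILC3s). DESeq2 and limma-voom also called 0 members, while DESeq2 called 88 (0.991%) of all tested genes. At an unadjusted p under 0.05 limma-voom had 8.73% of them and 1 member, Mcm4. The filter on low counts left 19 members in the test and 20 outside it, 13 of them genes of G2 and mitosis. Of the 19, 8 had higher and 11 had lower fitted values in deficient ILC3s, with a median log2 fold of -0.04 against 0.02 over all tested genes. Groups that do not overlap were found in 3 of the 39 members, Cdkn1b (higher in deficient ILC3s) and Ccnd1 and Mcm4 (lower), where 2.66% of all rows with at least 1 count had such a pattern (1.19% higher and 1.47% lower) and 4.36% of the tested genes (2.26% higher and 2.1% lower).

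**Figure D1:**
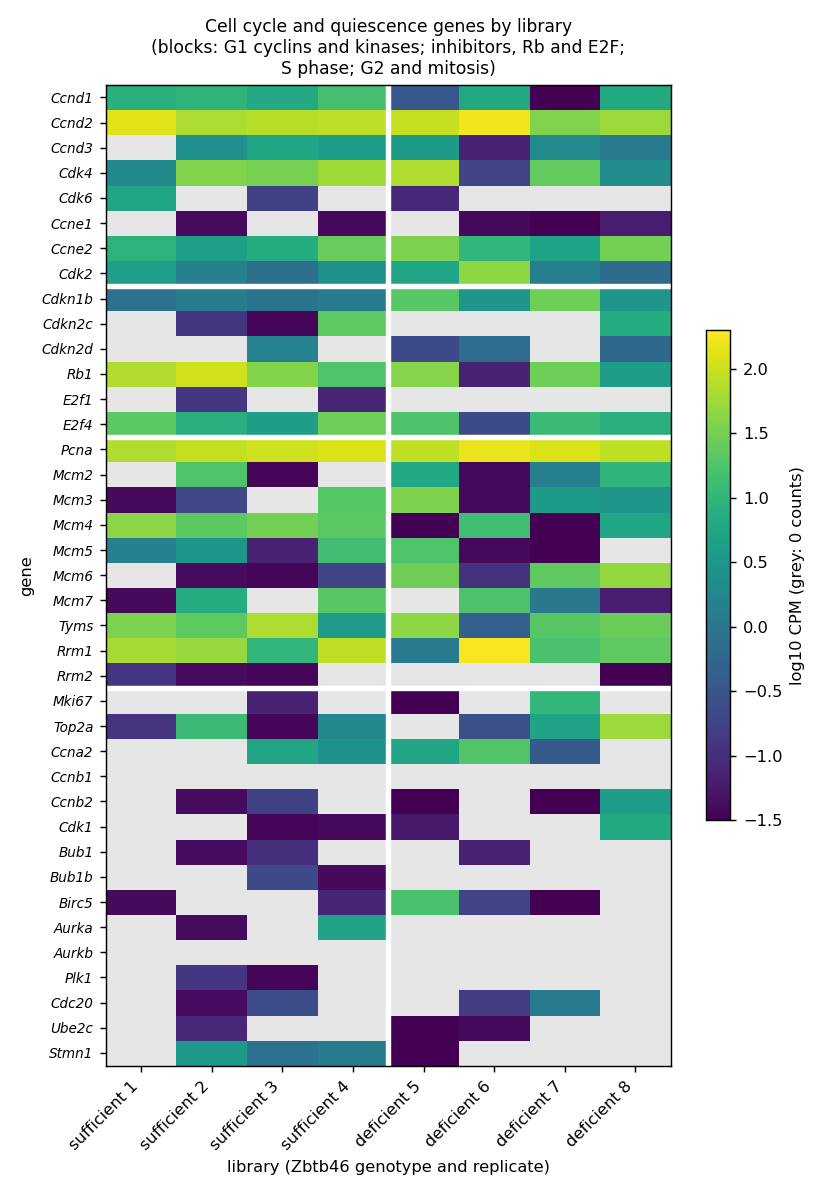
Level of each of the 39 members (rows, by role) in each of the 8 libraries (columns), as log10 CPM on a colour scale, with grey for 0 counts. The block of G2 and mitosis genes at the bottom is mostly grey or dark in both genotypes, while Pcna and Ccnd2 are bright in all 8 libraries.

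The sums of CPM over each role are given without a test. Over its 15 genes, the G2 and mitosis group had 8.70 ± 6.74 CPM in sufficient libraries and 31.2 ± 23.4 CPM in deficient ones. Every deficient sum (17.4 to 66.2 CPM) lay above every sufficient one (0.157 to 16.3 CPM). A different gene made up most of each deficient sum. It was Birc5 in replicate 5 (16.1 of 21.9 CPM), Ccna2 in replicate 6 (18.4 of 19.1), Mki67 in replicate 7 (10.5 of 17.4) and Top2a in replicate 8. The 10 S phase genes summed to 234.5 ± 39.5 and 247 ± 82.0 CPM, the 8 G1 cyclins and kinases to 151 ± 29.7 and 151 ± 78.4 CPM, and the 6 inhibitor, Rb and E2F genes to 81.1 ± 29.4 and 43.8 ± 35.8 CPM. Deficient replicate 6 held the highest S phase and G1 sums, 368 and 227 CPM, and without it the difference, deficient minus sufficient, was -28.0 CPM instead of 12.35 CPM for S phase and -25.5 CPM instead of -0.19 CPM for the G1 genes. The difference of the G2 and mitosis sums was 22.5 CPM, and without deficient replicate 8 (66.2 CPM, of which Top2a made up 55.5 CPM) it was 10.8 CPM. A further list of 40 G2 and mitosis genes outside the members overlapped between the groups. It summed to 1374 to 1902 CPM in sufficient and 1035 to 1870 CPM in deficient libraries, with Cenpa or Pttg1 the largest in each. Deficient replicate 6 also held the lowest sum of inhibitor, Rb and E2F genes, 4.25 CPM. In that role Rb1 had means of 58.4 CPM in sufficient and 18.3 CPM in deficient libraries, and E2f4 15.5 and 9.39 CPM. The inhibitor gene Cdkn1b went the other way, with 1.07 and 13.9 CPM. In bulk RNA, fewer cells that express a gene and less RNA per cell cannot be told apart.

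Most members were detected in some libraries and not in others. Of the 39, 9 exceeded 3 counts in all 8 libraries, 22 in some, and 8 in none, 2 of which had 0 counts throughout. In 18 members (46.2%) a library with at most 3 counts stood beside another with at least 100. Among all genes with a symbol and at least 1 count this all-or-none pattern held for 32.2%, and at a mean of 1 to 30 CPM for 13 of 19 members (68.4%) and for 79.4% of all genes. The libraries were made with a kit for very low RNA input, and the part of that step in the pattern was not tested.

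**Figure D2:**
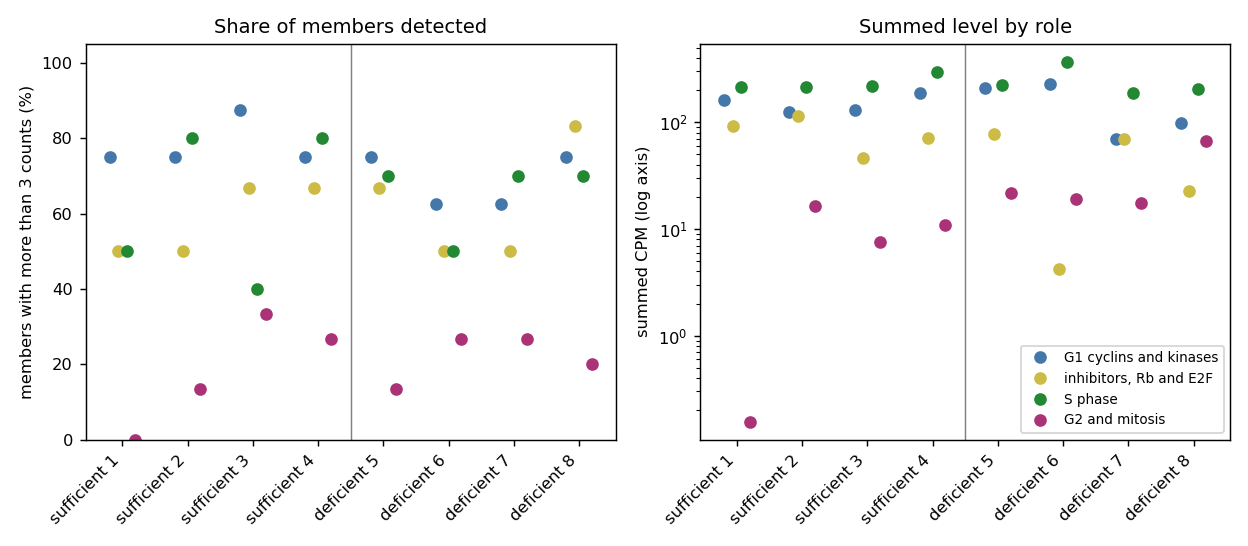
Left, share of the members of each role with more than 3 counts (%), and right, summed CPM of each role on a log axis, for each of the 8 libraries (points, 1 per role and library; no error bars). G2 and mitosis genes lie lowest in detection in every library, from 0 of 15 in sufficient replicate 1 to 5 of 15 in sufficient replicate 3.

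Among the D-type cyclins, which start the cycle in response to growth signals, Ccnd2 had the highest level per exon length. Ccnd2 (chromosome 6, 127125162 to 127152188; positions here are RefSeq's on GRCm38.p6, the assembly behind mm10) had 133, 68.3, 77.9 and 82.3 CPM in sufficient replicates 1 to 4 and 92.9, 164.7, 37.7 and 54.9 CPM in deficient replicates 5 to 8. Its groups overlapped widely, with the highest and the lowest values both in deficient libraries, and edgeR fitted a log2 fold of -0.04 (standard error 0.505, adjusted p 0.9999). Per kilobase of annotated exon, its mean level was 9.45 CPM, which placed it at the 79.9th percentile of the 16782 genes that had a length and at least 1 count. Ccnd1 and Ccnd3 lay at 1.39 and 0.274 CPM per kilobase on the same scale.

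Ccnd1 (chromosome 7, 144929931 to 144939831) had 8.22, 9.31, 6.63 and 14.9 CPM in sufficient libraries and 0.342, 6.49, 0.0313 and 6.38 CPM in deficient ones. The groups did not overlap, but replicate 3 of the sufficient group and replicate 6 of the deficient group were nearly level, and the separation came mainly from replicates 5 and 7. edgeR fitted a log2 fold of -1.56 (standard error 1.59, adjusted p 0.9999), and without replicates 5 and 7 it was -0.60. With limma-voom it was -3.61. Ccnd3 (chromosome 17, 47505051 to 47599689) had 0, 2.61, 5.33 and 4.09 CPM in sufficient libraries and 3.77, 0.0760, 2.13 and 1.22 CPM in deficient ones, with overlapping groups. The RefSeq spans of Ccnd1, Ccnd2 and Ccnd3 overlap other annotated genes, and nothing in the sources used here says whether strand entered the counting. Overlaps of this kind also hold for Cdk4, Cdk6, Ccne2, Cdk2, Rb1, E2f1, Mcm7, Top2a, Ccna2, Aurka and Cdc20, whose reads may be shared as well.

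The partner kinases of the D-type cyclins were not equally present. Cdk4 (chromosome 10, 127063535 to 127067288) had 2.04, 37.8, 33.3 and 58.1 CPM in sufficient libraries and 70.5, 0.190, 24.1 and 2.28 CPM in deficient ones, so that both groups held libraries near 2 CPM and above 20 CPM. Cdk6 (chromosome 5, 3341004 to 3531008) reached 5.44 CPM in sufficient replicate 1 and at most 0.180 CPM in the other 7 libraries. Sufficient replicate 1 is the library with the highest stromal and endothelial markers, whose part in the Cdk6 value was not tested. The overlapping gene Tspan31 may share reads with Cdk4.

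Cyclin E and CDK2 act at the entry into S phase. Ccne2 had 4.47 to 26.4 CPM in sufficient libraries and 5.10 to 35.9 CPM in deficient ones, while Ccne1 stayed at 2 counts or fewer in every library. Cdk2 had 0.793 to 4.38 CPM in sufficient libraries and 5.57, 45.04, 1.345 and 0.688 CPM in deficient ones, so its fitted log2 fold of 2.52 (standard error 1.64, edgeR adjusted p 0.9999) rested on deficient replicate 6 and was 0.15 without it.

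Cdkn1b encodes p27, which binds and inhibits complexes of cyclins with CDK2 and accumulates in resting lymphocytes. This gene (chromosome 6, 134920401 to 134925525) had 0.822, 1.28, 0.937 and 1.22 CPM in sufficient replicates 1 to 4. In deficient replicates 5 to 8 it had 20.3, 3.23, 29.1 and 3.16 CPM. All 4 deficient libraries lay above all 4 sufficient ones, and they fell into a pair near 3 CPM and a pair above 20 CPM. The means were 1.07 ± 0.221 and 13.9 ± 12.9 CPM, with a fitted log2 fold of 3.71 and a standard error of 1.42. The unadjusted p in edgeR was 0.0259 and the adjusted p 0.9999, so the gene did not pass. In limma-voom its unadjusted p was 0.0668, and the member under 0.05 there was Mcm4. Over 16 alternatives the log2 fold lay between 1.59 and 4.04 and the adjusted p between 0.120 (DESeq2) and 0.9999. The pair with the highest Cdkn1b, replicates 5 and 7, is also the pair with macrophage and neutrophil markers at 335 and 736 CPM and with the lowest Ccnd1 and Mcm4, at 0.0285 to 0.342 CPM, and the part of those other cells was not tested. Without these 2 libraries the log2 fold was 1.59 with an edgeR adjusted p of 0.9998, and the remaining deficient values of 3.23 and 3.16 CPM still exceeded the highest sufficient value of 1.28 CPM.

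**Figure D3:**
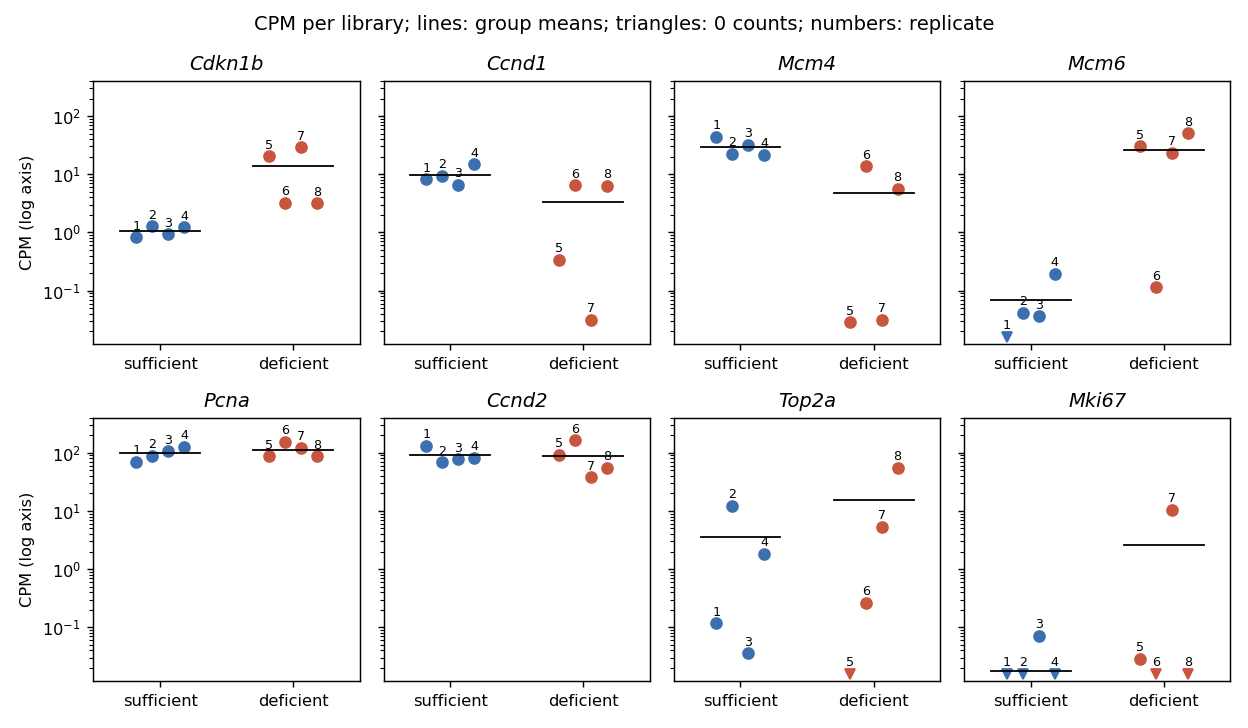
CPM per library on a log axis for 8 members, sufficient libraries in blue and deficient ones in red, numbered by replicate, with lines for group means and triangles for 0 counts. Cdkn1b, Ccnd1 and Mcm4 separate the groups, Mcm6 is high in deficient replicates 5, 7 and 8, and Pcna and Ccnd2 vary little beside the other 6 genes.

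Among the INK4 inhibitors, which block CDK4 and CDK6, Cdkn2c exceeded 3 counts in 2 libraries and Cdkn2d in 4. Cdkn2c (p18; chromosome 4, 109660876 to 109666756) had 22.7 CPM in sufficient replicate 4 and 7.20 CPM in deficient replicate 8 and at most 3 counts in the other 6. Cdkn2d (p19; chromosome 9, 21288459 to 21291421) had 1.55 CPM in sufficient replicate 3, 0.228, 0.722 and 0.594 CPM in deficient replicates 5, 6 and 8, and 0 counts elsewhere. Neither was tested, because the filter asked for more counts in at least 4 libraries.

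Rb1, the retinoblastoma gene (chromosome 14, 73192858 to 73325951), had 70.7, 105.3, 39.4 and 18.2 CPM in sufficient libraries and 40.2, 0.0760, 28.5 and 4.29 CPM in deficient ones. Sufficient replicates 1 and 2 lay above all deficient ones, and the other 2 sufficient libraries lay within their range. edgeR fitted a log2 fold of -1.68 (standard error 1.31, adjusted p 0.9999), and without replicates 5 and 7 it was -4.72, with an unadjusted p of 0.0300 and an adjusted p of 0.975. The RefSeq span of Rb1 overlaps that of Lpar6, so their reads may not be fully separated. E2f4, a repressive E2F factor of resting cells (chromosome 8, 105297663 to 105305370), had 21.9, 7.53, 4.14 and 28.5 CPM in sufficient libraries and 17.3, 0.228, 12.3 and 7.73 CPM in deficient ones, with overlapping groups. E2f1, an activating E2F factor of cycling cells, had 0 to 3 counts in sufficient libraries and 0 counts in all 4 deficient ones. Deficient replicate 6 was lowest for Cdk4, Rb1, E2f4 and Tyms alike, with 2 to 12 counts in each.

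Pcna, the sliding clamp of DNA polymerases that also serves DNA repair, had the smallest standard error of the 19 tested members. Pcna (chromosome 2, 132249286 to 132253180) had 69.2, 88.3, 106.5 and 126 CPM in sufficient libraries and 86.6, 154.7, 123 and 86.6 CPM in deficient ones. The groups overlapped, the means were 97.5 ± 24.4 and 113 ± 32.8 CPM, and edgeR fitted a log2 fold of 0.21 (standard error 0.36, adjusted p 0.9999). At 43.8 CPM per kilobase of exon it stood at the 93.2nd percentile of genes, the highest of the 39.

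Rrm1 and Tyms, which supply deoxynucleotides, were also present in every library but spread widely. Rrm1 (chromosome 7, 102441695 to 102469771) had 62.7, 51.8, 10.2 and 87.7 CPM in sufficient libraries and 1.14, 181, 16.05 and 23.2 CPM in deficient ones. Tyms had 4.05 to 68.8 CPM in sufficient libraries and 0.456 to 44.6 CPM in deficient ones. The groups overlapped for both genes. Rrm2, the subunit of ribonucleotide reductase that is made in S phase, had 0 to 3 counts in every library.

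The MCM genes encode the 6 subunits of the ring-shaped replicative helicase, and their transcripts did not appear together. Mcm4 (chromosome 16, 15623897 to 15637400) had 43.7, 22.3, 32.1 and 21.6 CPM in sufficient libraries and 0.0285, 13.7, 0.0313 and 5.57 CPM in deficient ones. The groups did not overlap, with a log2 fold of -2.63, a standard error of 1.73 and an edgeR adjusted p of 0.9999, and with 1 count each in deficient replicates 5 and 7. Without those 2 libraries the log2 fold was -1.64. In limma-voom with quality weights it was -5.89, with an unadjusted p of 0.00588 and an adjusted p of 0.363. Mcm6 (chromosome 1, 128331575 to 128359705) had 0, 1, 1 and 5 counts in sufficient libraries and 1056, 3, 742 and 1622 counts in deficient ones, or 30.1, 0.114, 23.2 and 50.7 CPM. The 3 high libraries were all deficient, but replicate 6 lay within the sufficient range, and the gene was left out of the test by the filter on low counts. Of the 3 high libraries, replicates 5 and 7 carried macrophage and neutrophil markers, and replicate 8 had 4.07 CPM of them. Mcm6 is singled out here after its values were seen.

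The other 4 helicase genes showed no such arrangement. Mcm2 was highest in sufficient replicate 2 (17.95 CPM), Mcm3 and Mcm5 in deficient replicate 5 (37.2 and 17.8 CPM), and Mcm7 in sufficient replicate 4 (20.6 CPM). Each of these 4 genes had libraries with at most 3 counts in both groups. No library exceeded 3 counts in all 6 MCM genes.

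The genes of G2 and mitosis were at or near 0 in most libraries of both genotypes. Ccnb1, which encodes the cyclin that drives mitotic entry, and Aurkb, a kinase of chromosome segregation, had 0 counts in all 8 libraries. Bub1, Plk1 and Ube2c, which serve the spindle checkpoint, mitotic entry and mitotic exit, never exceeded 3 counts, and Bub1b exceeded it once, with 6 counts in sufficient replicate 3. Mki67, the source of the Ki-67 proliferation antigen (chromosome 7, 135689784 to 135716450), had 336 counts (10.5 CPM) in deficient replicate 7 and 0 to 2 counts in the other 7 libraries. Deficient replicate 7 also carried macrophage, neutrophil and stromal markers, whose part in the Mki67 value was not tested.

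Cdk1, the mitotic kinase (chromosome 10, 69335146 to 69352912), had 6.48 CPM in deficient replicate 8 and 0 to 2 counts in the other 7 libraries. Top2a, the topoisomerase that untangles replicated chromosomes (chromosome 11, 98992947 to 99024199), had 0.117, 12.3, 0.0360 and 1.85 CPM in sufficient libraries and 0, 0.266, 5.32 and 55.5 CPM in deficient ones. Deficient replicate 8 was highest for Top2a, Cdk1 and Ccnb2 (4.26 CPM), yet had 0 counts of Mki67, Ccna2 and Birc5. Ccna2, the cyclin of S and G2 (chromosome 3, 36564865 to 36573038), had 0, 0, 5.69 and 2.67 CPM in sufficient libraries and 5.68, 18.4, 0.375 and 0 CPM in deficient ones. The groups of Top2a and Ccna2 overlapped, and the fitted log2 folds were 2.10 and 1.55 with standard errors of 2.38 and 2.36 (edgeR adjusted p 0.9999).

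Birc5 and Aurka were each seen above 5 counts in a single library. Birc5, which encodes survivin, had 16.1 CPM in deficient replicate 5 and at most 0.190 CPM elsewhere. Aurka, the kinase of the spindle poles, had 4.95 CPM in sufficient replicate 4 and at most 1 count elsewhere. Cdc20, an activator of the anaphase-promoting complex, reached 1.13 CPM in deficient replicate 7. Stmn1, which encodes the microtubule regulator stathmin, had 0, 3.64, 0.865 and 1.26 CPM in sufficient libraries and a single count over the 4 deficient ones, so that sufficient replicate 1 lay with the deficient libraries. Per kilobase of exon, Mki67 and Cdk1 stood at the 36.2nd and 37.3rd percentile of genes and Top2a at the 51.3rd.

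The upstream sequences of 6 members are shown because mitotic genes are known by their promoter elements. Top2a, Cdk1 and Ccnb1 stand for G2 and mitosis, Mcm6 and Pcna for S phase, and Cdkn1b for the inhibitors. Each line gives the 120 bases before the annotated start, 5′ to 3′ on the gene's strand, from RefSeq promoters of GRCm38.p6 (for Top2a the start used there lies inside the gene's annotated span). Capitals mark the CHR letters TTTGAA, the CCAAT box letters CCAAT and the E2F letters TTTCGCGC, TTTGGCGC or TTCCCGCC, searched on both strands.
Top2a (chr11:99024190-99024309, minus strand): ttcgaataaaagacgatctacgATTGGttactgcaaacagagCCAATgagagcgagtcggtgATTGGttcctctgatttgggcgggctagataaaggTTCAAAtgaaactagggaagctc
Cdk1 (chr10:69352913-69353032, minus strand): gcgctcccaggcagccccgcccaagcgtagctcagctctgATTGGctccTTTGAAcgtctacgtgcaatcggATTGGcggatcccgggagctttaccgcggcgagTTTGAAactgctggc
Ccnb1 (chr13:100786487-100786606, minus strand): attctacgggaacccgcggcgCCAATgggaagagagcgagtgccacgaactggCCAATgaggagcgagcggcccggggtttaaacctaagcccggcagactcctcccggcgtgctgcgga
Mcm6 (chr1:128359706-128359825, minus strand): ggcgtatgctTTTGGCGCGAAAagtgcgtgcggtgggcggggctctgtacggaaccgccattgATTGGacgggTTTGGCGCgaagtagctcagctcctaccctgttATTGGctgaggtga
Pcna (chr2:132253181-132253300, minus strand): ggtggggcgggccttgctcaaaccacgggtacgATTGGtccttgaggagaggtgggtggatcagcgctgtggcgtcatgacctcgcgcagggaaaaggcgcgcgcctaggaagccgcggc
Cdkn1b (chr6:134920281-134920400, plus strand): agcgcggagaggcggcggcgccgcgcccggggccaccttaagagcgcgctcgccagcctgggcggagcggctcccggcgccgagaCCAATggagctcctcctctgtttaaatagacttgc

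In these stretches Top2a held 1 CHR match and 3 CCAAT boxes, Cdk1 2 and 2, and Mcm6 3 E2F matches, 2 of which overlap in 1 run. Ccnb1 held 0 CHR matches and 2 CCAAT boxes, and Pcna 0 E2F matches and 1 CCAAT box. Over windows from 250 bases before to 50 bases after the start, which the table gave for 30 of the 39 members, the CHR letters were found in 9 of 12 G2 and mitosis genes, 1 of 9 S phase genes and 0 of 9 other members, against 17.9% of all 32851 windows. The E2F letters were found in 1, 5 and 0 of them, against 2.96% of all windows, and the CCAAT box in 11, 8 and 5, against 37.4%. A member counted when any of its windows held the letters, while the percentages are shares of single windows, so these are unlike units. A match is a description of the letters and not a measured binding site.

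**Figure D4:**
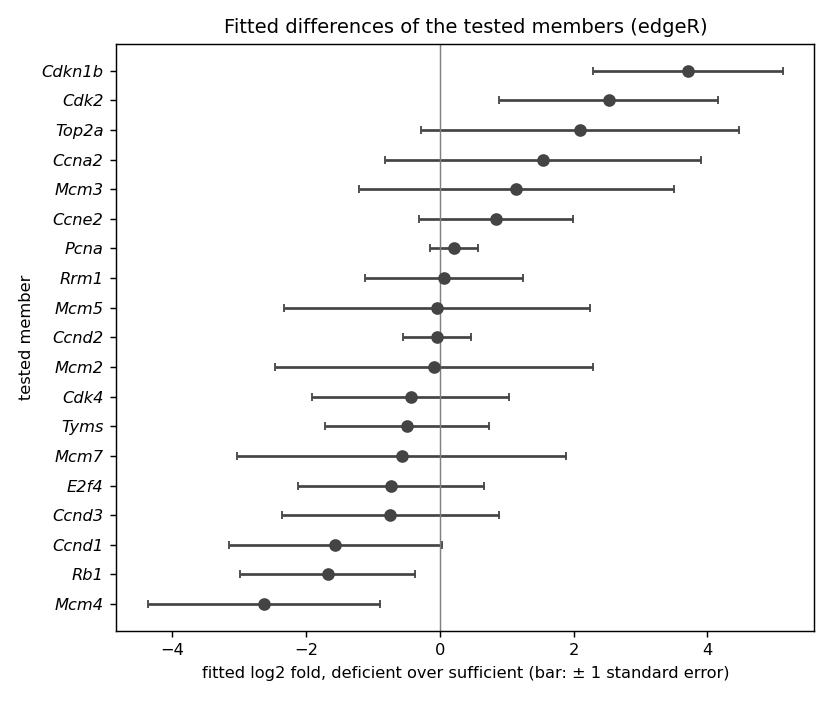
Fitted log2 fold, deficient over sufficient, for the 19 members that passed the filter on low counts, with bars of 1 standard error from edgeR. Pcna and Ccnd2 have the narrowest bars, at 0.36 and 0.505, and bars of over 2 belong to Mcm2, Mcm3, Mcm5, Mcm7, Top2a and Ccna2.

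Beyond the 39 members, 138 further genes of the cycle were followed in 6 lists, and 0 of them passed edgeR's adjusted threshold. The S phase list had 26 of 39 genes tested, 9 with higher and 17 with lower fitted values (median log2 fold -0.28), and the G2 and mitosis list 11 of 40 tested, 2 higher and 9 lower (median -0.23). Other inhibitors, pocket proteins, E2F and DREAM genes had 10 of 20 tested, 2 higher and 8 lower (median -0.20). Other cyclins and kinases had 8 of 8 tested, 3 higher and 5 lower (median -0.16), ubiquitin ligases of the cycle 16 of 17 tested, 10 higher and 6 lower (median 0.08), and quiescence and antiproliferative factors 12 of 14 tested, 3 higher and 9 lower (median -0.21). Over all tested genes the median was 0.02.

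The smallest p values in these lists belonged to Foxo1, Cul1 and Rbbp4. Foxo1, a transcription factor that holds resting lymphocytes in quiescence, had 336, 286, 289.5 and 522 CPM in sufficient libraries and 603, 624, 505 and 562 CPM in deficient ones. Sufficient replicate 4 lay within the deficient range, and edgeR gave an unadjusted p of 0.0181 and an adjusted p of 0.983, with a log2 fold of 0.68 and a standard error of 0.24. Cul1, the scaffold of SCF ubiquitin ligases, had 391, 227, 305 and 444 CPM in sufficient libraries and 155, 315, 139 and 109 CPM in deficient ones. The groups overlapped through deficient replicate 6, and edgeR gave a log2 fold of -0.93 with an unadjusted p of 0.0301 and an adjusted p of 0.9999. Rbbp4, a histone-binding subunit of the DREAM complex, had 94.8 to 158 CPM in sufficient libraries and 3.84 to 66.8 CPM in deficient ones, without overlap, and edgeR gave an adjusted p of 0.9999.

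The next genes by p in each list were further from the threshold, each with an edgeR adjusted p of 0.9999. They were Pola1, Rpa3 and Slbp among S phase genes, Prc1, Cks2 and Kif23 among mitotic genes, E2f5 and Tfdp1 among E2F partners, Ccng1, Ccng2 and Mnat1 among cyclins and kinases, Cdc23 and Skp1 among ubiquitin ligases, and Btg1 and Tob2 among antiproliferative factors. Their fitted log2 folds ran from -3.14 for Prc1 to 3.20 for Cdc23.

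Several regulators outside the member list were abundant in both genotypes, named here after their values were seen. The p21 gene Cdkn1a, an inhibitor of cyclin-dependent kinases, averaged 334 ± 34.05 CPM in the sufficient and 313 ± 87.4 CPM in the deficient group. Btg1, an antiproliferative factor of resting lymphocytes, had 1629 ± 236 and 1333 ± 259 CPM, and Ccng2, an atypical cyclin that is high in resting cells, 907 ± 147 and 684 ± 166 CPM. The groups overlapped in all 3. Other genes of the same lists were low. Over the 8 libraries Klf2 had 0 to 18.6 CPM, Slfn2 0.0313 to 6.67, Txnip 0 to 33.7 and Foxo3 0 to 2.77 CPM. Cdkn2a had 0 counts throughout. Of the quiescence and antiproliferative factors, 10 of 14 exceeded 3 counts in every library. Of the other inhibitors, pocket proteins, E2F and DREAM genes, 8 of 20 did. Not all genes of mitosis were low: Cenpa, a centromeric histone, had 315 to 679 CPM and Pttg1, which encodes securin, 273 to 642 CPM over the 8 libraries. In the list of other G2 and mitosis genes, 8 of 40 exceeded 3 counts in every library and 11 in none.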

How the data were processed

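The data were RNA sequencing libraries from 8 mice, 4 per group, with groups and replicate numbers taken from the sample titles. The deposited values are whole-number read counts per Entrez gene ID. CASAVA 1.8.2, STAR 2.3.0 and the build mm10 are named, per the submitters' processing notes, and the kit was a low-input SMARTer kit per the labels' protocols. Nothing in the sources used here names the counting tool, the annotation or the use of strand. Symbols came from RefSeq GRCm38.p6 (25275 of 27179 rows; the rest held 0.303% of counts) and exon lengths, the union of annotated exons, from GENCODE M21.

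Genes that passed filterByExpr were tested with edgeR 4.0.16 in R 4.3.3, by its quasi-likelihood test after TMM scaling, with Benjamini-Hochberg adjustment over 8878 genes. CPM uses TMM-scaled totals of the tested genes, and standard errors come from the F statistic. Alternatives included DESeq2 1.42.0, limma-voom (limma 3.58.1), other scaling and filters, and libraries left out. The fit was tested on simulated counts, drawn around each gene's mean with the dispersion that edgeR estimated for it. Most of the genes given a known change there, over several sizes of change, were not called. Whether the simulated counts held the all-or-none pattern was not checked, so they set no limit on what could be detected here. Members and lists were chosen with earlier results of these data known. Members were given in every library when their groups did not overlap, when the unadjusted p was under 0.05, when they were the 2 highest of their role, or when they were on a list of core cycle genes. Of each further list the 3 genes with the smallest p were named. Each mouse gave 1 library, so the spread among mice and that of library preparation cannot be told apart. The driver of the Cre is not reported here.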

Additional observations from a re-analysis of the deposited data

Results flagged for a closer look

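A library far from the other 3 of its group was found where its gap to the nearest one, divided by the spread from lowest to highest, exceeded Dixon's critical value. Of 63 groups of 4 libraries examined, 22 stood out. Chance would give about 1 in 20 groups, or 3.15, only for normally distributed values. CPM is bounded at 0 and was often all-or-none here, so the 22 cannot be set against that number. The same count over all genes was not made, and the summed groups repeat values of their members. The 22 were spread over all 8 libraries, with 5 in deficient replicate 8 and 4 in sufficient replicate 4. In deficient replicate 8 these were Top2a (55.5 CPM), Ccnb2 (4.26 CPM), Cdk1 (6.48 CPM), Cdkn2c (7.20 CPM) and the summed G2 and mitosis genes (66.2 CPM, against 17.4 to 21.9 CPM in replicates 5 to 7). In deficient replicate 7 they were Mki67 (10.5 CPM) and Cdc20 (1.13 CPM). In deficient replicate 6 they were Cdk2 (45.04 CPM), Mcm7 (17.6 CPM) and Rrm1 (181 CPM), and in deficient replicate 5 Birc5 (16.1 CPM), Mcm3 (37.2 CPM) and Mcm5 (17.8 CPM). In sufficient replicate 4 they were Aurka (4.95 CPM), Mcm3 (19.7 CPM), Cdkn2c (22.7 CPM) and the summed S phase genes (294 CPM, against 213 to 218 CPM in replicates 1 to 3). Cdc20 (0.252 CPM) and Cdkn2d (1.55 CPM) stood out in sufficient replicate 3, Top2a (12.3 CPM) and Mcm2 (17.95 CPM) in sufficient replicate 2, the library with epithelial markers, and Cdk6 (5.44 CPM) in sufficient replicate 1. Every one of these 22 values lay above the others of its group.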

How the results depend on the processing

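No paired analysis was possible because the replicate numbers run from 1 to 8 and no number is shared between the groups. No member passed an adjusted p of 0.05 under any alternative. Of 162 member values under 9 alternatives that did not leave out a single library, 145 kept their direction and 17 reversed. The count of all genes called was 0 with edgeR, 88 with DESeq2 and 2 without a filter on low counts, and it was 0 to 2 when 1 library was left out, with 2 called without deficient replicate 6. The log2 fold reversed for Mcm5 with RLE factors (0.0027) and DESeq2 (0.0026), for Mcm2 (0.026) and Rrm1 (-0.0048) with upper-quartile factors, and for Ccnd2 (0.014), Mcm2 (0.021) and Mcm5 (0.095) with no scaling factors. With limma-voom and quality weights it reversed for Mcm2 (3.99) and Rrm1 (-1.86). Leaving out replicates 1 and 6 reversed Pcna (-0.11), Mcm5 (0.071), Rrm1 (-1.87) and Ccna2 (-0.49). It also reversed Skp1 (0.047), which is not a member and not among the 17. Leaving out replicates 5 and 7, an alternative chosen after seeing the data, reversed Ccnd2 (0.28), Mcm2 (0.16), Mcm3 (-1.60) and Mcm7 (0.35). The cause was not tested. With 1 library left out at a time, 135 of 152 member values kept their direction, and the log2 folds that reversed ran from -0.54 to 0.21 for Ccnd2, -0.92 to 7.99 for Mcm2, -1.11 to 7.00 for Mcm3, -7.39 to 1.49 for Mcm5, -4.21 to 0.98 for Mcm7, -1.01 to 0.18 for Tyms, -1.98 to 0.47 for Rrm1, -0.94 to 4.50 for Top2a and -0.052 to 2.79 for Ccna2. Zbtb46 passed with DESeq2 (log2 fold -4.30, adjusted p 0.0223) and not with edgeR (-4.31, adjusted p 0.885). Genes at 3 counts or fewer are below what these depths can compare.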
